A study of Rattus norvegicus with 12 samples.

Results

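Fatty acid oxidation enzymes were followed through 10 genes chosen from the pathway, each named by the array files on a probe that is not a control: Cpt1a, Cpt1b, Cpt2, Acadvl, Acadl, Acadm, Acads, Hadha, Hadhb and Etfdh. They were read by 14 of the 45598 distinct probes of a 1-colour Agilent array. All 10 genes passed the filter on dim probes and were among the 14742 features tested. The arrays were hybridised with RNA of N27 cells, an immortalised rat line that the labels describe as dopaminergic. Of the 12 arrays, 7 came from cultures in which Vdac1 had been knocked out with CRISPR (KO 1 to KO 7) and 5 from wild-type cultures (WT 3, WT 5, WT 6, WT 7 and WT 8), all at about 80% confluence. Vdac1 encodes a channel of the outer mitochondrial membrane, and the series asks how its loss affects mitochondrial energy metabolism. The sources used here do not give whether the KO cultures came from 1 clone or whether the cultures were independent, so p-values measure the spread between these 12 samples, which may be technical.

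Mitochondrial fatty acid oxidation breaks long acyl chains into acetyl-CoA. Carnitine palmitoyltransferase 1 on the outer membrane joins the chain to carnitine, and carnitine palmitoyltransferase 2 on the inner membrane returns it to coenzyme A in the matrix. Each turn of the spiral then starts with an acyl-CoA dehydrogenase suited to the chain's length, whose electrons leave through the electron transfer flavoprotein and its dehydrogenase to ubiquinone, and for long chains the trifunctional protein carries out the remaining steps. Neurons are known for using little fatty acid as fuel, while astrocytes use more.

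Levels are log2 processed signal minus the 75th percentile of the same array, so 0 is the signal at that percentile, and differences are KO minus WT. The 75th percentile spanned 5.76-fold between arrays, from 120.1 to 691.8, with 42.3% to 53.8% of spots well above background and 0 saturated. Vdac1 read 2.54, 2.45, 2.68 and 2.26 on KO 1 to KO 4. On KO 5 to KO 7 it was lower, at 1.21, 1.53 and 1.20. The WT arrays lay between 3.07 and 3.61, so the groups did not overlap. The Vdac1 difference of -1.23 (SE 0.28) did not pass (limma adjusted p = 0.056). These Vdac1 values are of the brightest of 3 probes that passed the filter, and the others are not given. Of 9 dopaminergic markers 4 (Th, Slc18a2, Nr4a2 and Aldh1a1) were well above background on at least 5 arrays and 5 (Ddc, Slc6a3, Pitx3, Lmx1b and Foxa2) were not. Nr4a2 was above it on 1 of 7 KO and 4 of 5 WT arrays (difference -1.19, limma adjusted p = 0.143). Slc18a2 was above it on 6 KO and 3 WT arrays, and Th and Aldh1a1 on all. The summed level of the 9 ran from -0.55 to 0.40 on KO and from -0.53 to 0.32 on WT arrays. Of 9 neuronal markers only Tubb3 was above background on at least 5 arrays, of 5 astrocyte and 5 oligodendrocyte markers 0 and 0, and of 4 liver markers 0. Neural progenitor markers were above background in 3 of 4 cases (Nes, Sox2 and Vim), fibroblast markers in 3 of 6 and microglial markers in 1 of 5 (Cd68), and the summed level of each of these 3 lists overlapped between KO and WT. In earlier results of these arrays the samples numbered 1 to 4 stood apart from those numbered 5 to 8. The former are KO 1 to KO 4 and WT 3, the latter KO 5 to KO 7 and WT 5 to WT 8. Several values that differed with this split are therefore also given with it as a block, but not that of Vdac1.

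The probes are 60-base oligonucleotides, mostly near the end of the transcript, and where a gene had several they read different stretches of it. The start of the following probes, 30 of 60 bases each, is shown because the carnitine palmitoyltransferase and trifunctional protein results turn on them. Capitals mark AATAAA, the usual signal for adding the poly(A) tail, which was searched for on the strand as printed and stands in 2 of the 14 probes and in 9.04% of all probes.
Cpt1a, transcript base 3421: cagtcagattccaaccagagtcaaattcca
Cpt1b, transcript base 2707: tgttcataatggctttttacctgctttgaa
Cpt1b, transcript base 2574: tttcccccggtcttggtagatgctAATAAA
Hadha, transcript base 607: tttgacatgatgctgactggtaggaacatt
Hadha, transcript base 2456: tgtcccgctcttcctcctggtgaagtctga
The Cpt1b probe at base 2574 of a separate cDNA record reads into a tail signal, and the probe at base 2707 of the reference transcript holds none. By the coordinates in the files, which name rat build rn4 and were not checked against a genome here, the Cpt1a probe lies at chr1:205912066-205912125 and the Cpt1b probe of base 2707 at chr7:127737188-127737247.

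Of the 10 enzymes, 1 fell in the knockout, Cpt1b, 0 rose and 9 did not pass (limma, Benjamini-Hochberg adjusted p under 0.05 over all 14742 features). Over all features 0.699% rose and 0.393% fell. At unadjusted p under 0.05, 3 of the 10 enzymes were lower (Cpt1b, Acadvl and Etfdh) and 0 higher, beside 6.23% of all features that were lower. The enzymes' median difference was -0.31 with 8 of 10 below 0, beside a median of 0.04 over all features, of which 44.8% were below 0. In 1 of the 10, Cpt1b, the groups did not overlap, as in 2.73% of all features. In cultures measured in bulk, fewer cells with a transcript and less of it per cell cannot be told apart.

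**Figure D1:**
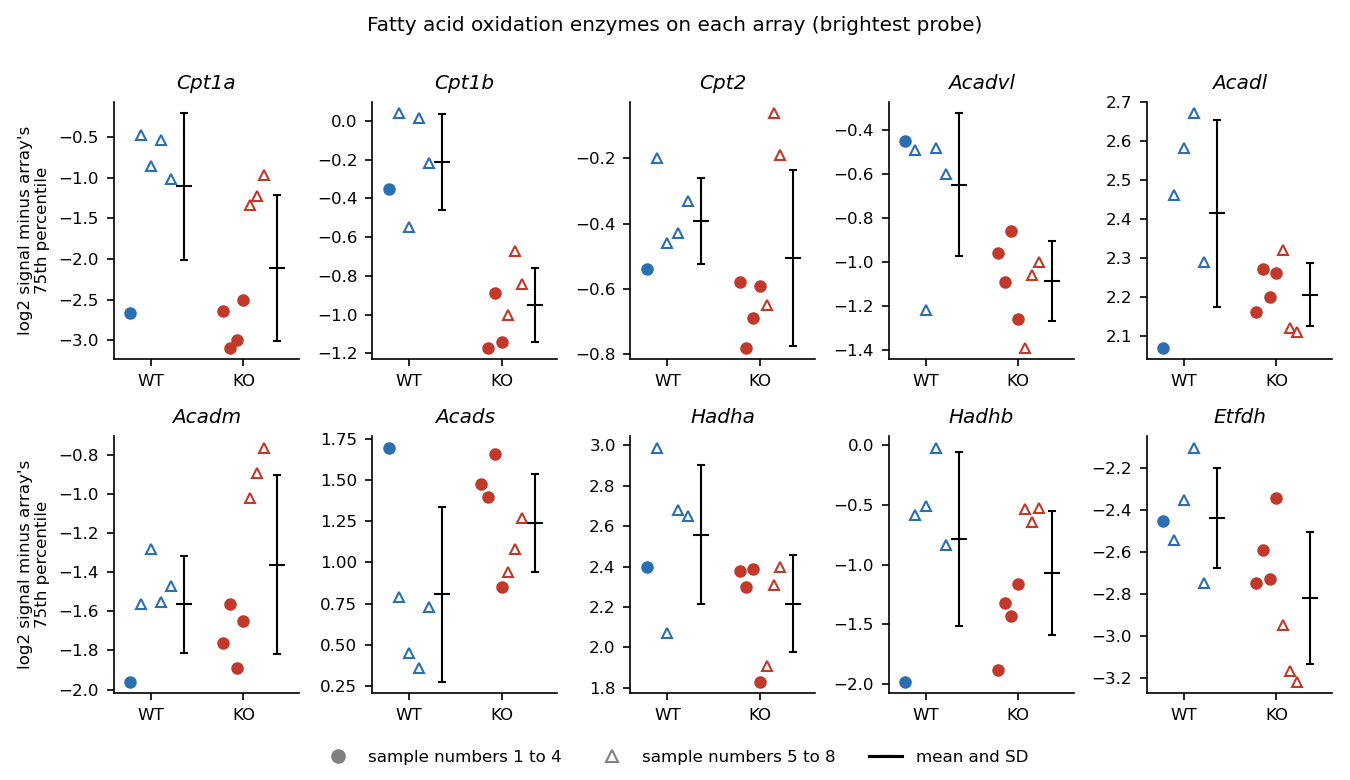
Level of each of the 10 enzymes on each array (brightest probe of the gene, log2 signal minus the array's 75th percentile), for 5 WT and 7 KO arrays, with the mean and SD. Filled circles are samples numbered 1 to 4 and open triangles those numbered 5 to 8. Cpt1b has 6 KO points, since the spot of KO 1 was left out, and all 6 lie below the WT points. For Cpt1a the circles of both groups lie below all triangles.

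Cpt1b encodes the muscle-type isoform of carnitine palmitoyltransferase 1. Its brighter probe, at base 2707, read -1.17 at the lowest, -0.95 at the median and -0.67 at the highest of 6 KO arrays. The WT arrays read -0.35 (WT 3), 0.039 (WT 5), -0.55 (WT 6), 0.017 (WT 7) and -0.22 (WT 8). Every measured KO array was thus below every WT array. The means were -0.95 ± 0.19 (SD, n = 6) and -0.21 ± 0.25 (SD, n = 5), and Cpt1b fell by 0.74 on the log2 scale, 1.67-fold (SE 0.15, limma adjusted p = 0.0418).

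The single spot of this probe on KO 1 was marked uneven by the scanner software and left out. With it kept, at a level of 7.87 against at most -0.67 on the other KO arrays, the Cpt1b difference was 0.52 (limma adjusted p = 0.892). The call was also lost without any 1 of the 11 arrays other than WT 3, at differences of -0.83 to -0.68 (limma adjusted p up to 0.129), and with normexp background correction (-0.58, adjusted p = 0.137). With slide as a block Cpt1b fell by 0.75 (limma adjusted p = 0.0357). Taken slide by slide, the difference on slides 1, 2 and 3 was -0.48, -1.07 and -0.81. It did not pass on slides 1 and 3 (limma adjusted p = 0.481 and 0.888). On slide 2, KO 2 and KO 3 stood against the lone WT 5, so genotype and number range cannot be told apart there. Of 5 muscle markers only Des was well above background on at least 5 arrays, with a difference of -0.66 (limma adjusted p = 0.303), while Myh7, Ckm, Acta1 and Myog were not. The summed level of the 5 ran from -3.26 to -2.35 on KO and from -3.22 to -1.90 on WT arrays. Their part in the Cpt1b result was not tested.

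The other Cpt1b probe, with the tail signal printed above, read -2.72, -2.12 and -1.65 at the lowest, median and highest KO array. On WT 3, WT 5, WT 6, WT 7 and WT 8 it read -1.85, -1.52, -2.24, -2.15 and -1.63. These groups overlapped. Its difference of -0.39 (SE 0.21) did not pass when all 17886 probes above the filter were fitted one by one (limma adjusted p = 0.376), where the brighter probe did (limma adjusted p = 0.0426) and 0.442% of all probes fell. On KO 1 the dimmer probe read -2.10, within the range of the other KO arrays. Both Cpt1b probes therefore had a negative difference, and 1 of them passed.

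Cpt1a encodes the liver-type isoform, which most tissues use. Its probe read -2.64, -3.09, -3.00 and -2.50 on KO 1 to KO 4, and -1.33, -1.23 and -0.97 on KO 5 to KO 7. The WT arrays read -2.67 (WT 3), -0.48 (WT 5), -0.85 (WT 6), -0.53 (WT 7) and -1.01 (WT 8). The samples numbered 1 to 4 were low in both genotypes, and no level of theirs reached those of samples numbered 5 to 8. The difference over all arrays was the largest in size of the 10 enzymes, -1.0, but with an SE of 0.47 it did not pass (limma adjusted p = 0.321). With the number range as a block it was -0.36 (SE 0.16, limma adjusted p = 0.225). On slides 1, 2 and 3 taken singly the Cpt1a difference was 0.74, -2.43 and -1.22. On slide 2 the KO arrays are numbered 1, 2 and 3 and the lone WT array is numbered 5, so genotype and number range cannot be told apart there. Slide 1 set KO 6 and KO 7 against WT 3 and WT 8, and slide 3 set KO 4 and KO 5 against WT 6 and WT 7. The number ranges were thus uneven between the genotypes on these slides too.

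Cpt2, the inner membrane enzyme, read -0.78, -0.59 and -0.062 at the lowest, median and highest KO array and -0.54, -0.20, -0.46, -0.43 and -0.33 on WT 3, WT 5, WT 6, WT 7 and WT 8. The WT values lay inside the KO range. The difference was -0.11 (SE 0.15, limma adjusted p = 0.755).

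The acyl-CoA dehydrogenases divided by sign, with Acadvl and Acadl below 0 and Acadm and Acads above 0, and none of these 4 passed. Acadvl, which acts on very long chains at the inner membrane, read -1.39, -1.06 and -0.86 at the lowest, median and highest KO array. On WT 3, WT 5, WT 6, WT 7 and WT 8 it read -0.45, -0.49, -1.22, -0.48 and -0.60. All WT arrays but WT 6 were above all KO arrays. The Acadvl difference was -0.44 (SE 0.16, limma adjusted p = 0.194), with -0.50, -0.48 and -0.47 on slides 1, 2 and 3 taken singly.

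Acadl, the long-chain enzyme, was the most even member across KO arrays, between 2.11 and 2.32 with a median of 2.20, over 10 spots per array. It read 2.07 on WT 3, below every KO array, and 2.46, 2.58, 2.67 and 2.29 on WT 5, WT 6, WT 7 and WT 8. The difference was -0.21 (SE 0.13, limma adjusted p = 0.440).

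Acadm, the medium-chain enzyme, read -1.76, -1.56, -1.89 and -1.65 on KO 1 to KO 4 and -1.02, -0.89 and -0.76 on KO 5 to KO 7. The WT arrays read -1.96 (WT 3), -1.56 (WT 5), -1.28 (WT 6), -1.55 (WT 7) and -1.47 (WT 8). KO 5 to KO 7 were above every WT array, while KO 1 to KO 4 lay among them. The difference was 0.20 over all arrays (SE 0.22, limma adjusted p = 0.699) and 0.47 with the number range as a block (SE 0.12, limma adjusted p = 0.0422), where it passed.

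Acads, the short-chain enzyme, read 0.85, 1.27 and 1.66 at the lowest, median and highest KO array. It read 1.70 on WT 3, above every KO array, and 0.79, 0.45, 0.36 and 0.73 on WT 5, WT 6, WT 7 and WT 8, below every KO array. The difference was 0.44 (SE 0.23, limma adjusted p = 0.372), and 0.24 with the number range as a block (SE 0.20, limma adjusted p = 0.528). Without WT 3, which leaves only WT arrays numbered 5 to 8, the Acads difference was 0.66 (limma adjusted p = 0.054).

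Hadha and Hadhb encode the alpha and beta subunits of the trifunctional protein. Hadha had 4 probes, all with a negative difference and none past the threshold. The brightest, at base 2456, read 1.83, 2.31 and 2.40 at the lowest, median and highest KO array and 2.40, 2.99, 2.07, 2.68 and 2.65 on WT 3, WT 5, WT 6, WT 7 and WT 8. The groups overlapped through WT 6 and WT 3, and the difference was -0.34 (SE 0.17, limma adjusted p = 0.359). At bases 607, 2383 and 2636 the Hadha differences were -0.58, -0.59 and -0.60 (limma adjusted p over all probes 0.157, 0.155 and 0.263). The probe at base 607, far from the transcript's end, read -1.46 to -1.99 on KO arrays and -0.88, -0.75, -1.91, -1.15 and -1.04 on WT 3, WT 5, WT 6, WT 7 and WT 8, so WT 6 was the WT array inside the KO range. The 4 Hadha differences lay between -0.60 and -0.34, with SEs of up to 0.25, and the probes share the same RNA.

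Hadhb, read at base 1161, was -1.88, -1.32, -1.43 and -1.16 on KO 1 to KO 4 and -0.53, -0.64 and -0.52 on KO 5 to KO 7. It was -1.98 on WT 3 and -0.58, -0.51, -0.017 and -0.83 on WT 5, WT 6, WT 7 and WT 8. As for Cpt1a, the samples numbered 1 to 4 were all below those numbered 5 to 8. The Hadhb difference was -0.28 (SE 0.32, limma adjusted p = 0.716) and turned to 0.12 with the number range as a block (limma adjusted p = 0.769).

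Etfdh, which passes electrons from the flavoprotein to ubiquinone, read -3.22, -2.75 and -2.34 at the lowest, median and highest KO array. On WT 3, WT 5, WT 6, WT 7 and WT 8 it read -2.45, -2.54, -2.35, -2.10 and -2.75. The lowest 3 arrays were KO 7, KO 6 and KO 5. The difference was -0.38 (SE 0.17, limma adjusted p = 0.307) and -0.67 in samples numbered 5 to 8 alone (SE 0.19, limma adjusted p = 0.0868).

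**Figure D2:**
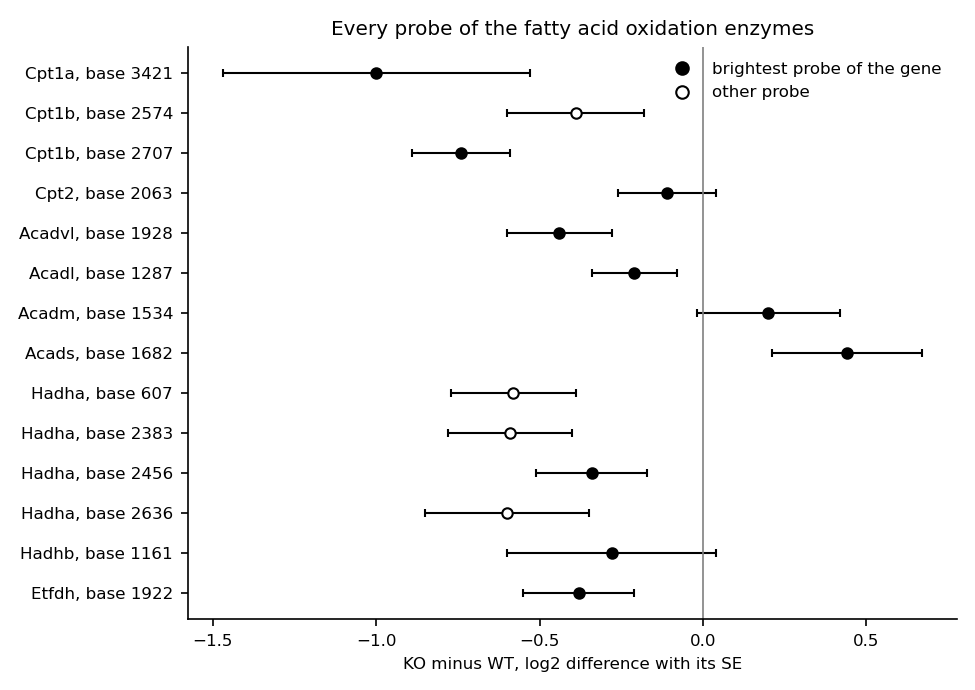
KO minus WT difference of every probe of the 10 enzymes on the log2 scale, with its SE over 12 arrays (11 for Cpt1b at base 2707). Filled points are the brightest probe of a gene. The Cpt1b and Hadha probes all lie below 0, from -0.74 to -0.34, and Cpt1a at -1.0 has the widest SE, 0.47.

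Differences between members within an array do not depend on how the array is scaled, and 5 such pairs were compared between genotypes with exact two-sided permutation tests, adjusted over the 5. Cpt1b minus Cpt1a, the isoforms of carnitine palmitoyltransferase 1, differed by 0.17 between KO and WT (exact permutation p = 0.742, adjusted p = 0.889, n = 6 and 5). This value ran from 0.13 on KO 7 to 2.11 on KO 3 and from 0.30 on WT 6 to 2.32 on WT 3. It was higher in samples numbered 1 to 4 than in those numbered 5 to 8, which among WT rests on WT 3 alone. Hadhb minus Hadha, the subunits of 1 complex, differed by 0.057 (exact permutation p = 0.889, adjusted p = 0.889, n = 7 and 5). Along chain length, Acadl minus Acadvl differed by 0.23 (exact permutation p = 0.294, adjusted p = 0.735), Acadm minus Acadl by 0.41 (exact permutation p = 0.115, adjusted p = 0.574) and Acads minus Acadm by 0.23 (exact permutation p = 0.577, adjusted p = 0.889), each with n = 7 and 5. With the number range as a block, where no permutation test was made, Cpt1b minus Cpt1a was -0.30, Hadhb minus Hadha 0.44, Acadl minus Acadvl 0.32, Acadm minus Acadl 0.64 and Acads minus Acadm -0.23, so 2 of the 5 pairs turned sign. No pair passed over all arrays, and the smallest p possible was 0.00126 with 792 splits and 0.00216 with the 462 splits left for Cpt1b.

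Cpt1a, Hadhb and Acadm differed more between the ranges of sample numbers than between the genotypes, also among KO arrays alone. From samples numbered 5 to 8 to those numbered 1 to 4, the mean over arrays differed by -1.87 for Cpt1a, -1.03 for Hadhb, -0.55 for Acadm and 0.61 for Acads, and by -0.035 for Acadvl. The ranges hold the genotypes in unequal shares, so these differences also carry that of genotype. The means of KO 1 to KO 4 and of KO 5 to KO 7 were -2.81 and -1.18 for Cpt1a. They were -1.44 and -0.56 for Hadhb and -1.72 and -0.89 for Acadm. For Acads they were 1.35 and 1.1, a smaller gap than the genotype difference of 0.44. These values describe a split known from the same arrays and were not tested, and the sources used here do not give what the numbers stand for. With the number range as a block, 1 of the 10 enzymes rose (Acadm, 0.47) and 1 fell (Cpt1b, -0.68, SE 0.14, limma adjusted p = 0.0215), while 3.03% of all features rose and 2.06% fell. Among samples numbered 5 to 8 alone, limma called 0 of the 10 in either direction, beside 2.25% of all features called higher and 2.34% lower. At unadjusted p under 0.05, 2 of the 10 were higher and 3 lower there, beside 11.8% and 8.76% of all features. There Acadm differed by 0.58 (SE 0.15, limma adjusted p = 0.0694), Acads by 0.52 (adjusted p = 0.134), Cpt1b by -0.66 (adjusted p = 0.0928) and Cpt1a by -0.46 (adjusted p = 0.212). Samples numbered 1 to 4 hold a single WT array.

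**Figure D3:**
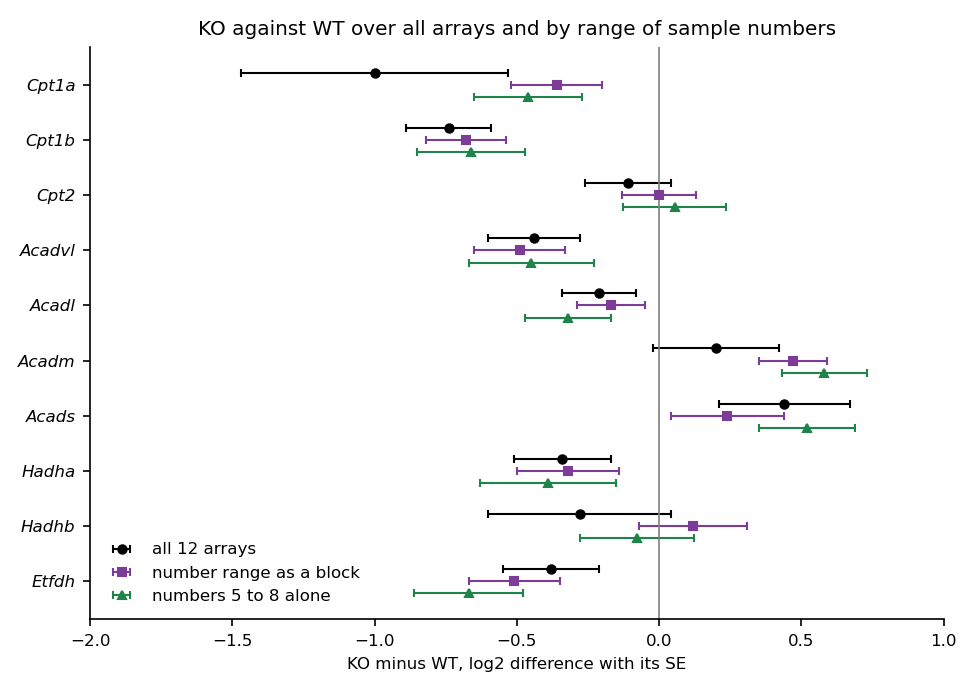
KO minus WT difference of each enzyme with its SE, over all 12 arrays (circles), with the number range as a block (squares) and in samples numbered 5 to 8 alone (triangles). Cpt1a moves from -1.0 to -0.36 under the block and Acadm from 0.20 to 0.47, while Cpt1b stays between -0.74 and -0.66.

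The other genes of fatty acid use, in 9 lists, had 60 of 79 genes above the filter, of which 1 rose, 0 fell and 59 did not pass in limma (at unadjusted p under 0.05, 8 were higher and 2 lower, beside 9.35% and 6.23% of all features). Their median difference was 0.10 with 40.0% below 0. The gene that rose was Pparg, the nuclear receptor of fat storage, at 1.30 (SE 0.26, limma adjusted p = 0.0409). The Pparg probe stood well above background on all 7 KO arrays, from -3.02 to -2.24, and on 3 of 5 WT arrays, where it read -3.03, -4.11, -4.19, -4.91 and -3.56 from WT 3 to WT 8. With normexp the Pparg difference was 0.31 (limma adjusted p = 0.814), and without any 1 of the arrays other than WT 3 the call was lost. Among the 6 of 10 regulators tested, the second smallest p belonged to Prkaa1, a catalytic subunit of AMP-activated kinase, at -0.29 (limma adjusted p = 0.335), and with the mean of the gene's probes the Prkaa1 difference was -0.041. Ppargc1a, the coactivator of mitochondrial biogenesis, was not well above background on any array.

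Before the spiral, 0 of 8 tested genes of fatty acid uptake and activation passed, with a median of 0.17. Acsl3 and Acsbg1, which activate long chains to acyl-CoA, differed by 0.41 and 0.57 (limma adjusted p = 0.264 and 0.339). Of the other carnitine shuttle genes 0 of 6 passed, with a median of 0.12. Cpt1c, the neuronal member of the carnitine palmitoyltransferase family, differed by -0.43 (SE 0.22, limma adjusted p = 0.360), and Acacb, whose malonyl-CoA restrains carnitine palmitoyltransferase 1, by 0.32 (adjusted p = 0.703). Acacb was well above background on only 5 of 7 KO and 2 of 5 WT arrays. As for Cpt1a, Cpt1c was low on KO 1 to KO 4, between -1.06 and -0.53, against -0.22 to -0.095 on KO 5 to KO 7, but WT 3 at -0.35 lay among the other WT arrays, between -0.48 and 0.51.

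Of the other acyl-CoA dehydrogenases 0 of 6 passed, with Acadsb and Ivd of branched-chain amino acid breakdown at 0.44 and 0.49 (limma adjusted p = 0.286 and 0.339). Of the genes that carry their electrons 0 of 4 passed, with Coq10b, a ubiquinone-binding protein, at -0.34 (adjusted p = 0.345) and Etfb, a subunit of the flavoprotein, at 0.22 (adjusted p = 0.644). Among 11 other matrix enzymes 0 passed, with a median of -0.091. Echs1, the short-chain enoyl-CoA hydratase, came nearest at 0.93 (SE 0.23, limma adjusted p = 0.0674). It read 2.27, 2.69 and 3.44 at the lowest, median and highest KO array and 2.33, 1.92, 1.69, 1.86 and 1.68 on WT 3, WT 5, WT 6, WT 7 and WT 8, so WT 3 was the WT array within the KO range. With slide as a block (0.79, limma adjusted p = 0.0454) and with the number range as a block (0.67, adjusted p = 0.0232) Echs1 passed. With normexp (0.89, limma adjusted p = 0.22) and quantile normalization (0.86, adjusted p = 0.0798) it did not, nor without any 1 of the arrays other than WT 3. Mmut, the mutase for odd-chain products, differed by 0.25 (limma adjusted p = 0.430).

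Hadh, the short-chain 3-hydroxyacyl-CoA dehydrogenase, is named here because its values were seen to divide the KO arrays. Over 10 spots per array, Hadh read -1.37, -1.16, -1.08 and -1.16 on KO 1 to KO 4 and -5.92, -6.38 and -6.25 on KO 5 to KO 7. On WT 3, WT 5, WT 6, WT 7 and WT 8 it read -1.51, -1.76, -1.81, -1.78 and -2.12. It was not well above background on KO 5, KO 6 or KO 7 and was on the other 9 arrays. Over all arrays the Hadh difference of -1.54 (SE 1.06) did not pass (limma adjusted p = 0.507). Within samples numbered 5 to 8, Hadh was at least 11-fold lower in KO than in WT, which is given as a description with no test because the gene was chosen for this pattern. This bound sets the mean of the brighter arrays against, on each dim array, the higher of the probe's own signal and the lowest signal of any probe well above background. In the same way KO 5 to KO 7 were at least 17.5-fold below KO 1 to KO 4, a contrast within the knockout that was not tested either. The gene was read by 1 probe that passed the filter.

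**Figure D4:**
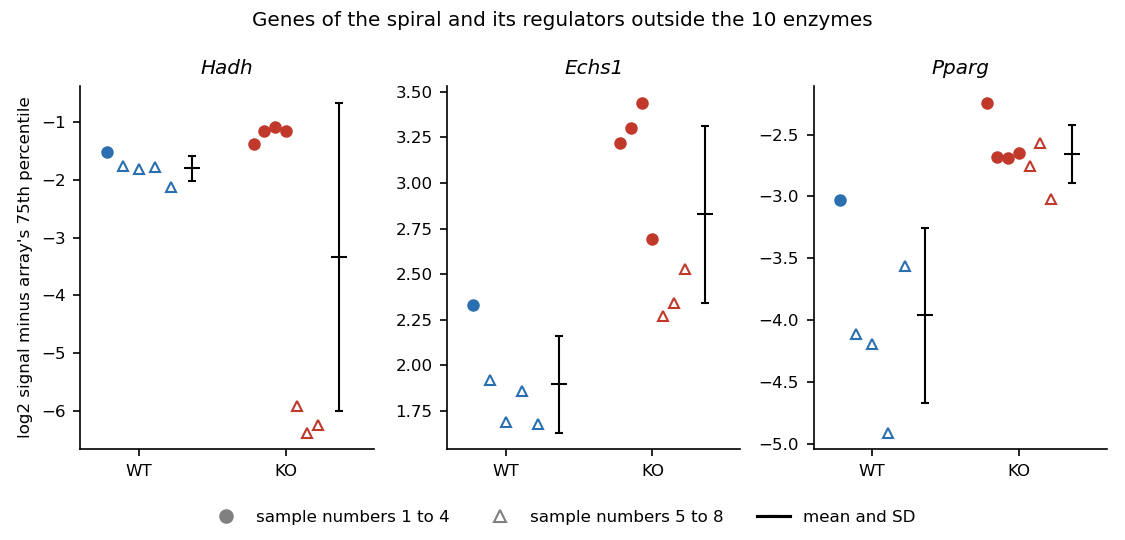
Level of Hadh, Echs1 and Pparg on each array (log2 signal minus the array's 75th percentile), for 5 WT and 7 KO arrays, with the mean and SD. Filled circles are samples numbered 1 to 4 and open triangles those numbered 5 to 8. Hadh lies between -6.38 and -5.92 on KO 5 to KO 7 and between -2.12 and -1.08 on all other arrays.

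Outside the mitochondrial spiral, 0 of 11 tested genes of peroxisomal oxidation passed, with a median of 0.18 and 9 of 11 above 0. Decr2, a peroxisomal reductase, differed by 0.85 (limma adjusted p = 0.132), but only 3 of 5 WT arrays had it well above background, and with normexp the difference was 0.12 (adjusted p = 0.985). Abcd3, an importer of acyl-CoA, differed by -0.39 (limma adjusted p = 0.260). Of 11 targets of the PPAR receptors outside the spiral 4 were above the filter, and 0 passed, with a median of -0.57 and all 4 below 0. Angptl4, a secreted inhibitor of lipoprotein lipase, differed by -0.97 (SE 0.35, limma adjusted p = 0.200) and Plin2, a coat protein of lipid droplets, by -0.66 (SE 0.32, adjusted p = 0.339). Angptl4 was at 2.31 on WT 3 and between 4.04 and 5.01 on the other WT arrays, against 2.65 to 3.51 on KO arrays, and without WT 3 its difference was -1.38 (limma adjusted p = 0.00693). With the number range as a block Angptl4 differed by -0.67 (limma adjusted p = 0.251) and Plin2 by -0.27 (adjusted p = 0.459). Of ketone body genes 0 of 4 passed, with Bdh1, which interconverts both main ketone bodies, at 0.82 (limma adjusted p = 0.0800). Bdh1 passed with the mean of its probes (0.95, limma adjusted p = 0.0251) and with the number range as a block (0.58, adjusted p = 0.0382). It did not pass with normexp (0.45, limma adjusted p = 0.428) or with slide as a block (0.79, adjusted p = 0.0904).

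**Figure D5:**
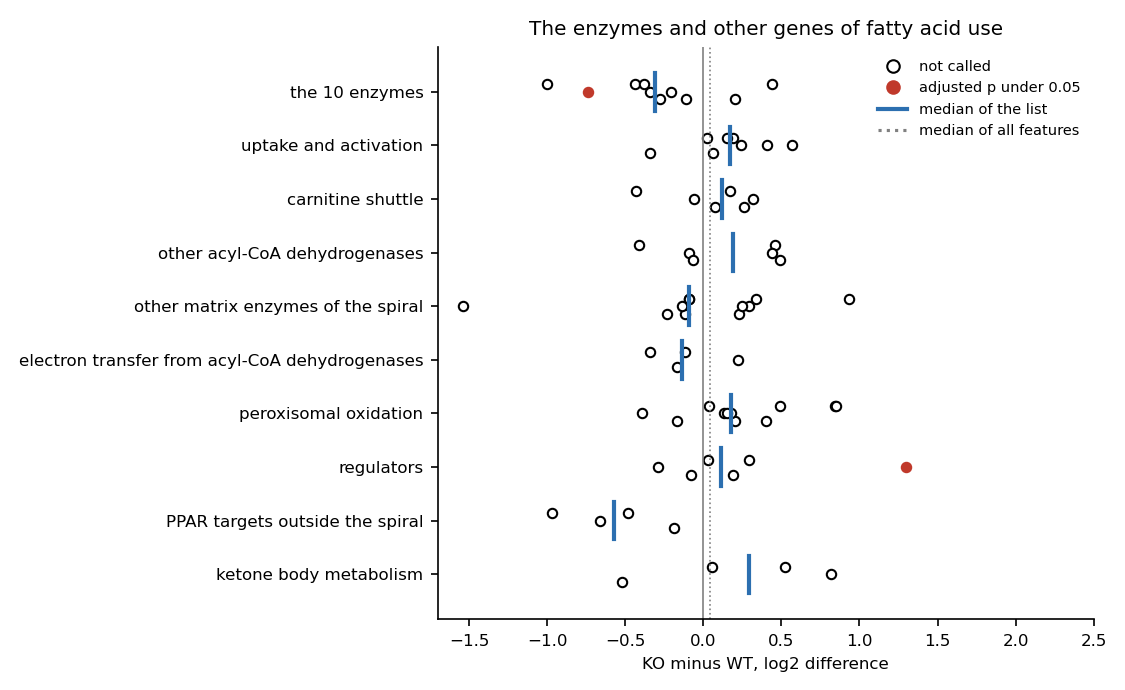
KO minus WT difference (log2) of each tested gene of the 10 enzymes and of the 9 lists of other genes of fatty acid use. Each point is a gene, red where the adjusted p was under 0.05, the blue bar is the median of the list, and the dotted line is the median of all features, 0.04. The enzymes' median lies at -0.31 and that of the PPAR targets at -0.57, and 2 points, Cpt1b and Pparg, are red.

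The promoter table of RefSeq for build GRCr8 held 8 of the 10 genes, without Cpt1b and Acadl. The 250 bases before each start were searched on both strands. AGGTCA, the half-site that PPAR and other nuclear receptors read, stood in 1 of the 8 (Acadvl, with 2 copies), beside 14.1% of all 33469 promoters of this length. The exact tandem AGGTCANAGGTCA stood in 0 of the 8 and in 0.0508% of all. GGGCGG, the GC box, stood in 5 of the 8 (Cpt2, Acads, Hadha, Hadhb and Etfdh), beside 30.5% of all, and CCAAT in 1 (Acads), beside 34.0%. The 250 bases searched for Hadha and for Hadhb overlap and share the GGGCGG copy printed below, so the 8 promoters are not separate. Hadha and Hadhb start head to head on chromosome 6, with 301 bases between the starts used for the search. The 243 bases of this interval next to the Hadha start are shown because the genes of both subunits of the trifunctional protein start at its ends. The remaining bases, next to the Hadhb start, hold the other Hadhb copy of GGGCGG and are not printed. They are annotated as part of Hadhb's first exon, so the gene annotation places a Hadhb start nearer to Hadha. The shown part lies at chr6:31907558-31907800 of GRCr8, on the plus strand towards Hadha, with the GGGCGG copy it holds (on the minus strand) in capitals.
Hadha and Hadhb: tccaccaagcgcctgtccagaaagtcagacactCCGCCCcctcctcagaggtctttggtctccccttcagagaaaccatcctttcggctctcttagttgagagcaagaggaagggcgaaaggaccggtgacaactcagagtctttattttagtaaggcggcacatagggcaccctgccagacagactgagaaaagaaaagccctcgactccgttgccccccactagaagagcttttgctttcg
Across the arrays, Hadha differed by -0.17 between samples numbered 1 to 4 and those numbered 5 to 8, and Hadhb by -1.03, which is a description of these arrays and was not tested. These ranges hold the genotypes in unequal shares. Among KO arrays alone, the means of KO 1 to KO 4 and of KO 5 to KO 7 were 2.23 and 2.21 for Hadha. For Hadhb they were -1.44 and -0.56.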

How the data were processed

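RNA was Trizol-extracted total RNA with Cy3 as the only dye, per the labels' protocols. The submitters' processing notes name Agilent Feature Extraction 10.7, and the file headers version 10.1.1.1. The deposited scanner files give each spot's intensity (linear, background-treated by the software) and other columns of yes-or-no flags. The deposited value table holds log2 values that the authors normalized, used as an alternative, with a Spearman correlation of 0.998 with the scanner signal.

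Spots with the software's flags for unevenness or outlying value were dropped. Replicate spots were averaged on the log2 scale, and the 75th percentile of the array was taken off. Probes were named through RefSeq (21109 by accession, 6684 by symbol, 424 by synonym; 17381 kept the file's name). The brightest probe stood for a gene, and it was tested where well above background on at least 5 of 12 arrays. KO and WT were compared with limma 3.58.1 in R 4.3.3 (no covariate, two-sided, adjusted p under 0.05), tested on simulated data. The number of arrays limits the precision.

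The members, lists and alternatives, among them the split by sample number, were chosen with earlier results of these data known. Named from each list are the called genes and the 2 with the smallest p, and Hadh, chosen after its values were seen. The values of 1 such gene are not reported here.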

Additional observations from a re-analysis of the deposited data

Results flagged for a closer look

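In 38 checks for a single array far from the rest of its group, where chance flags about 1 in 20, 4 stood out. Cpt1a on WT 3 was at -2.67, far below the other WT arrays. Cpt1b minus Cpt1a on the same array was accordingly high, at 2.32. Acadvl on WT 6 was at -1.22, below the other WT arrays, and WT 6 was also the lowest WT array at Hadha bases 607 and 2456. The Hadha probe at base 2636 on KO 5 was at 1.77, above the other KO arrays. What set these arrays apart was not tested.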

How the results depend on the processing

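Cpt1b was called lower with quantile normalization, the deposited value table, slide as a block, the number range as a block, and without WT 3. The number of members called lower was 0 with normexp, no filter, probes above background on all 12 arrays (where the dimmer Cpt1b probe stands for the gene), the mean of a gene's probes, within slides 1 and 3, in numbers 5 to 8 or 1 to 4 alone, and with flagged spots kept (chosen after seeing the data; Cpt1b 0.52). Within slide 2, KO 1 to KO 3 stand against the lone WT 5, so genotype and number range cannot be told apart. The differences there were -2.43 for Cpt1a and -0.63 for Hadha. Members called higher were 1 with the number range as a block. Leaving out each array gave 0 to 1 members lower, 9 to 383 features higher and 3 to 268 lower, with the most without WT 3.

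Features called higher and lower were 16 and 9 with normexp, 56 higher with quantile normalization and 54 with the value table, 0 and 0 without a filter, 181 and 108 above background on all arrays, 253 and 151 with slide as a block, 0 and 0 within slides 1 and 3, 1055 and 922 within slide 2, 446 and 303 with the number range as a block, 332 and 345 in numbers 5 to 8, and 42 and 5 in numbers 1 to 4.

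The replicate numbers 3, 5, 6 and 7 occur in both groups, with same-number correlations of deviations of 0.46, -0.11, 0.073 and 0.05, so they were not taken to pair the samples. With the replicate block limma called 0 features higher and 0 lower (919 and 615 at unadjusted p under 0.05) and 0 members, with Cpt1b at -0.64 (limma adjusted p = 0.398) and Cpt2 at 0.0093.

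Signs turned within slide 1 for Cpt1a (0.74), Cpt2 (0.31), Acads (-0.038), Hadhb (0.82), Plin2 (0.36), Acsbg1 (-0.11), Coq10b (0.011) and Cpt1c (0.26), and within slide 2 for Acadm (-0.18), Acadsb (-0.059), Acacb (-0.47) and Hadh (0.55). They turned in numbers 1 to 4 for Acadl (0.15), Acads (-0.35), Hadhb (0.54), Mmut (-0.084), Angptl4 (0.58), Plin2 (0.41), Coq10b (0.014), Etfb (-0.50), Acacb (-0.55) and Hadh (0.32). They also turned in numbers 5 to 8 for Cpt2 (0.054), with the number range as a block for Hadhb (0.12), and with normexp for Acacb (-0.046). On slide 1 KO 6 and KO 7 stood against WT 3 and WT 8, so number range and genotype were partly mixed there. The cause of these turns of sign was not tested.

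Within slide 1 the pair differences were -1.21 for Cpt1b minus Cpt1a, 0.99 for Hadhb minus Hadha, 0.96 for Acadm minus Acadl and -0.93 for Acads minus Acadm. Of the arrays on slide 1, WT 3 alone is numbered 1 to 4. Within slide 2 Cpt1b minus Cpt1a was 1.50 and Acadm minus Acadl 0.069. In numbers 5 to 8 Acadm minus Acadl was 0.90, and in numbers 1 to 4 Acadl minus Acadvl was 0.74 and Acads minus Acadm -0.59. Cpt1b minus Cpt1a was also below 0 with the number range as a block (-0.30), in numbers 5 to 8 (-0.20) and 1 to 4 (-0.52) and with the replicate block (-0.14), and so was Acads minus Acadm with the number range as a block (-0.23), in numbers 5 to 8 (-0.06) and with the replicate block (-0.035). Hadhb minus Hadha was below 0 within slides 2 (-0.34) and 3 (-0.07). With flagged spots kept Cpt1b minus Cpt1a was 1.52. Leaving out each array gave -0.038 to 0.53 for Cpt1b minus Cpt1a and -0.20 to 0.25 for Hadhb minus Hadha.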
